A study of Homo sapiens with 6 samples.

Results

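The genes described here are 51 genes of double-strand break repair, interstrand crosslink repair and damage signalling, chosen by name from the 50868 genes of each count table. All 51 have a row, and all 51 passed the filter on low counts. ATRIP has 2 rows at overlapping positions, which are summed here. RNA was sequenced from DU145, a human prostate cancer line. The siRCC2 group is labelled as RCC2 knockdown, with the genotype given by an siRNA against RCC2, a relative of the chromatin protein RCC1. The siCtrl group, named as the control siRNA, is labelled as RCC2 wild type. Each group has 3 libraries, and both groups are the same cell line, with no time point or siRNA sequence given in the sources used here.

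Homologous recombination repairs a double-strand break by copying the sister chromatid. The ends are resected, BRCA1, PALB2 and BRCA2 prepare the single strand for pairing, and helicases and nucleases resolve the joined molecules. The Fanconi core complex attaches ubiquitin to FANCD2 and FANCI at crosslinks and feeds this repair. ATM and ATR are the kinases that signal the damage, while the Ku proteins, DNA-PKcs and DNA ligase IV join ends without a template. Many of these genes are known to be transcribed most in late G1 and S phase under E2F factors. In bulk libraries like these, a change in the share of cells in a cycle phase and a change in RNA per cell cannot be told apart.

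Total counts were 17377191, 19895431 and 19111049 in siRCC2 replicates 1 to 3, against 19808215, 18206357 and 18791049 in siCtrl replicates 1 to 3. RCC2 itself had 980, 1117 and 1045 counts in the siRCC2 libraries, against 3998, 3598 and 3702 in the siCtrl libraries, so the groups did not overlap. The epithelial keratin gene KRT8 was at 685 to 767 CPM (counts scaled by library size with the TMM method) in siRCC2 and at 457 to 464 CPM in siCtrl. KRT18 and CDH1, also epithelial, were higher in siRCC2 too, whereas EPCAM, another epithelial gene, was at 9.79 to 12.1 CPM in siRCC2 and 14.5 to 16.5 CPM in siCtrl (-0.48 ± 0.12, edgeR adjusted p = 0.0181). COL1A1, a fibroblast marker, was at 7.80 to 10.6 CPM in siRCC2 and 11.3 to 13.2 CPM in siCtrl, while DCN, the other fibroblast marker, had at most 6 counts. The part of these markers in the results was not tested. KLK2, a prostate kallikrein, had 0 counts in all 6 libraries, which allows up to 3 counts in each, and PTPRC, a leukocyte marker, had at most 1. The siRCC2 libraries were spread along the second principal component of log CPM, with replicates 1 and 3 far apart: they lay at 41.5 and -35.2 and siRCC2 replicate 2 at -13.3, against -3.78 to 5.43 for the siCtrl libraries. The effect of leaving either out is given below for some of the genes. Nothing in the labels tells whether the 3 libraries of each group were grown separately, and the p-values here reflect library-to-library variation that may be technical.

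More of these genes were lower than higher after RCC2 siRNA. Tested with edgeR's quasi-likelihood method at a Benjamini-Hochberg adjusted p under 0.05 over all 16536 tested genes, 16 of the 51 fell and 2 rose, and 33 did not pass. Of all tested genes 41.8% passed. Across all tested genes 21.1% fell and 20.7% rose, against 31.4% and 3.92% of these 51. The fitted fold change was below 0 for 38 of the 51 genes (74.5%), and for 50.9% of all tested genes. The median log2 fold change was -0.30 for the genes described here and -0.02 for all tested genes. Groups of libraries did not overlap in 22 genes that were lower and 5 that were higher in siRCC2, with 28.5% and 26.8% of all tested genes in these classes. It is not given whether counting used strand. Without strand, reads from exon sequence shared with a gene on the other strand could not be told apart. Whether exons overlap was not examined. The whole spans of 11 of the 18 genes that passed, introns included, overlap an annotated gene on the other strand. These are BRCA1 (NBR2), FANCA (ZNF276), FANCI (POLG), RAD54L (LRRC41), MUS81 (CFL1 and EFEMP2), FANCD2 (FANCD2OS), FANCC, RAD51B, SLX4, WRN and XRCC5. Leaving out 1 library moved the number that fell between 9 (without siRCC2 replicate 2) and 19 (without siRCC2 replicate 3), and it was 10 without siCtrl replicate 3. The number that rose was 4 without siRCC2 replicate 1, 0 without siCtrl replicate 1 or 3, and 1 without siCtrl replicate 2. In these fits 7565, 5112 and 6787 of all tested genes were called in either direction without siRCC2 replicates 1, 2 and 3. Without siCtrl replicates 1, 2 and 3 there were 5211, 5280 and 5114, against 6911 with all libraries. Over the 50 genes other than ATRIP the median was -0.31, and -0.13 without siRCC2 replicate 1.

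**Figure D1:**
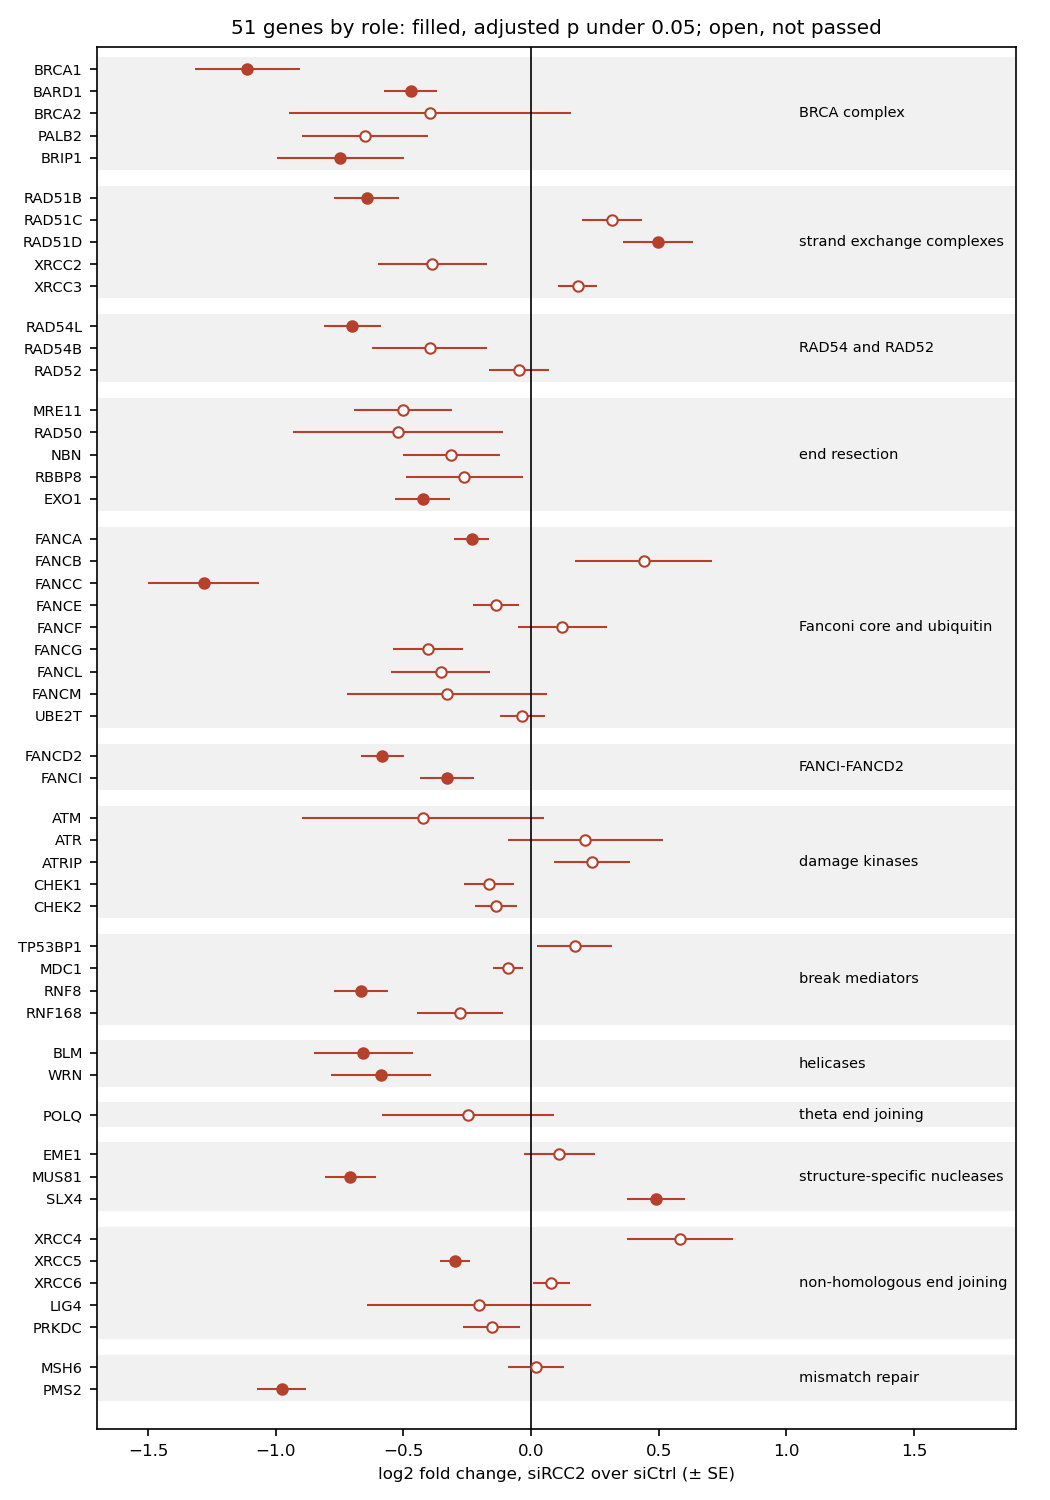
Log2 fold change (siRCC2 over siCtrl, horizontal axis) with its standard error for the 51 genes, grouped by role down the page; filled points passed the threshold and open points did not, and ATRIP is the sum of its 2 rows. The 16 filled points left of 0 include FANCC, BRCA1 and PMS2, the farthest left, and the 2 right of 0 are RAD51D and SLX4.

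Levels differed widely between the genes when set per length. On a scale of CPM per kilobase of exon sequence, XRCC6, the smaller Ku subunit, was highest, at 172 ± 13.9 in siRCC2 and 163 ± 1.27 in siCtrl (SD, n = 3 libraries each). XRCC5, the larger Ku subunit, followed at 36.2 ± 0.945 in siRCC2 and 44.5 ± 1.08 in siCtrl, and PRKDC, which encodes DNA-PKcs, at 33.9 ± 5.07 and 37.7 ± 1.49. The siRCC2 levels of XRCC5 and PRKDC did not differ beyond their spread. On this scale the end-joining genes above were thus the most abundant of the set. XRCC4, their ligase partner, was near the lower end of the set in siCtrl, at 2.165 ± 0.5425 in siRCC2 and 1.446 ± 0.0325 in siCtrl. FANCB, a core complex subunit, was lowest in both groups, at 0.584 ± 0.178 in siRCC2 and 0.432 ± 0.0515 in siCtrl. BRCA2 was next to lowest in siCtrl, at 0.943 ± 0.231, with 0.713 ± 0.617 in siRCC2. In siRCC2 the spreads of BRCA2, FANCB and RAD51B (0.651 ± 0.0406) overlapped. Dividing by the longest coding transcript instead kept XRCC6 first and FANCB last, but placed UBE2T above PRKDC. UBE2T was then at 45.4 ± 2.87 in siRCC2 and 46.4 ± 2.47 in siCtrl, and PRKDC at 38.7 ± 5.79 and 43.1 ± 1.70, with overlapping spreads.

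**Figure D2:**
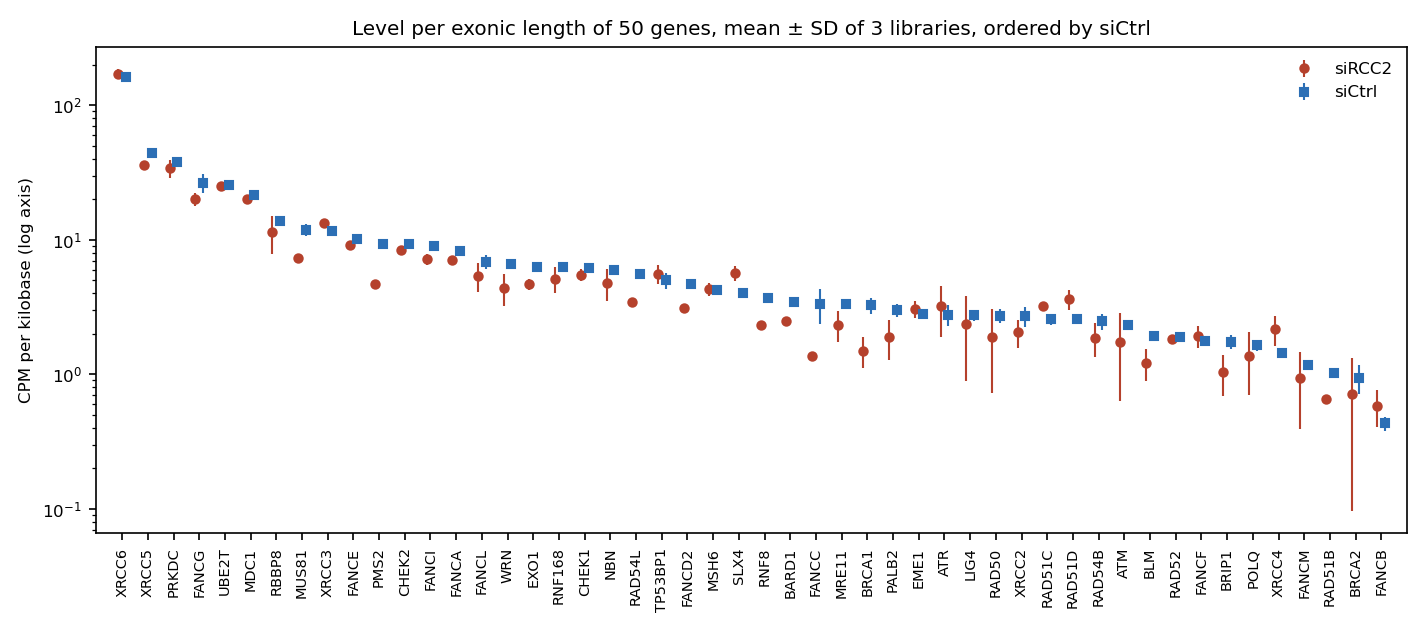
Level per length (CPM per kilobase of exon sequence, log axis) of 50 genes in siRCC2 (circles) and siCtrl (squares), as the mean and SD of 3 libraries, ordered by the siCtrl mean; ATRIP is left out because its reads are divided between 2 rows. XRCC6 stands at 172 in siRCC2 and 163 in siCtrl, and FANCB, the last, at 0.584 and 0.432.

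The promoters of these genes were searched for letters bound by E2F factors, since E2F control is known for many of them. The windows run from 250 bases before to 50 after each start in RefSeq (GRCh38.p14), and 45 of the 51 genes had at least 1. The letters searched were TTCGCGC and its 3 variants on either strand. The first variant was TTGGCGC in this search. The second variant used was TTCCCGC, and the last variant was TTGCCGC. The reverse complement of TTGGCGC ends in letters that CCAAT can share, so these motifs can overlap. At least 1 of them was present in 23 of the 45 genes (51.1%), against 24.7% of the 11180 tested genes with a window. Of the 13 genes that fell and had a window, 10 held them, as did 13 of the other 32. The same division by call was not made over all tested genes. TTCCCGC alone was in 16 of the 45 (35.6%) and in 12.5% of all. CCAAT, the NF-Y letters, was in 24 (53.3%, against 42.6%), and the CHR letters, which were TTTGAA in one form and also TTTAAA, in 10 (22.2%, against 20.8%). A match is a description of the letters and not of a bound site. The stretches below, from 60 bases before the start base to 39 after it, are shown for 6 recombination and Fanconi genes that fell, to let the place of the letters be compared; capitals mark the E2F-type letters on either strand.
BRCA1 (chr17:43125325-43125424, minus strand): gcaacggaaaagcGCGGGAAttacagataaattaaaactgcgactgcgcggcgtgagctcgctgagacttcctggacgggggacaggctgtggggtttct
BARD1 (chr2:214809644-214809743, minus strand): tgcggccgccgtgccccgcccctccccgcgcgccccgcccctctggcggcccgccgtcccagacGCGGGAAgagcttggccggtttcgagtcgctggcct
BRIP1 (chr17:61863489-61863588, minus strand): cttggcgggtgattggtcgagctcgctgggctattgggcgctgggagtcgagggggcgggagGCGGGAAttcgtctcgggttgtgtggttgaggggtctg
RAD54L (chr1:46247628-46247727, plus strand): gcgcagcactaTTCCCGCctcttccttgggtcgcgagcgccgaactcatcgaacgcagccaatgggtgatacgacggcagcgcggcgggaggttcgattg
EXO1 (chr1:241848144-241848243, plus strand): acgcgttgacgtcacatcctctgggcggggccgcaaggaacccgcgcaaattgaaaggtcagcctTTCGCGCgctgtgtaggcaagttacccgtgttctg
FANCD2 (chr3:10026377-10026476, plus strand): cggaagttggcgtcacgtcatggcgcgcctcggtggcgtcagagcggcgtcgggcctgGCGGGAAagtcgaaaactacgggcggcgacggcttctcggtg
In BARD1, BRIP1, EXO1 and FANCD2 the match begins within 5 bases of the start base, at 4, 2, 5 and -2, and in BRCA1 and RAD54L it begins at -47 and -49. At another start of RAD54L the letters begin at -124, and another start each of BRCA1 and EXO1 held none. The place is not particular to genes that fell. Of 17 genes with the letters in this stretch 10 fell, and MSH6 (4), FANCF (1) and XRCC3 (-2), which did not pass, also have a match near a start base.

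BRCA1, the ubiquitin ligase that directs broken ends to recombination (ENSG00000012048, GRCh38 chromosome 17, 43044295 to 43170245), fell. It was at 9.86, 16.7 and 14.8 CPM in the siRCC2 libraries, against 26.1, 29.4 and 34.2 CPM in the siCtrl libraries. Every siRCC2 value was below every siCtrl value, and the log2 fold change was -1.11 ± 0.21 (SE; edgeR adjusted p = 0.00498). BARD1, the partner that BRCA1 needs for its activity, fell less. It was at 14.15, 14.99 and 15.94 CPM in siRCC2, against 21.8, 19.5 and 21.2 CPM in siCtrl, with a log2 fold change of -0.47 ± 0.10 (edgeR adjusted p = 0.00996). The ratio of BRCA1 to BARD1 counts was 0.697, 1.11 and 0.931 in siRCC2, against 1.20, 1.51 and 1.61 in siCtrl, and these did not overlap (exact permutation p = 0.10, two-sided, the smallest that 3 libraries against 3 allow). BRIP1, the helicase that binds BRCA1, fell by 0.75 on the log2 scale (SE 0.25, edgeR adjusted p = 0.0469), to 5.32, 8.76 and 10.7 CPM in siRCC2, against 12.1, 14.4 and 15.3 CPM in siCtrl. Its call was lost without siRCC2 replicate 2 or without any 1 siCtrl library (adjusted p from 0.0684 to 0.130).

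PALB2, which bridges BRCA1 and BRCA2, did not pass (-0.65 ± 0.25, edgeR adjusted p = 0.0720), although its 5.68 to 11.4 CPM in siRCC2 lay below its 12.4 to 15.1 CPM in siCtrl. It passed without siRCC2 replicate 1 (adjusted p = 0.0457) or siRCC2 replicate 3 (adjusted p = 0.0370). With all 6 libraries it passed under DESeq2 (adjusted p = 0.0319), the replicate block (adjusted p = 0.0322) and limma-voom sample weights (adjusted p = 0.0178). BRCA2, a mediator of strand exchange, was spread too far to call. It was at 3.39, 5.46 and 17.4 CPM in siRCC2, against 11.02, 9.05 and 14.6 CPM in siCtrl. The third siRCC2 library held the highest value of all 6 and the first the lowest. The log2 fold change was -0.40 ± 0.55 with all libraries (adjusted p = 0.596), -1.37 ± 0.29 without siRCC2 replicate 3 (adjusted p = 0.0128) and -0.04 ± 0.45 without siRCC2 replicate 1 (adjusted p = 0.954).

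The genes RAD51B, RAD51C, RAD51D, XRCC2 and XRCC3 have products that form complexes assisting strand exchange, and of these 1 fell, 1 rose and 3 did not pass. RAD51B fell, to 4.84, 4.59 and 5.19 CPM in siRCC2, against 7.34, 8.14 and 7.37 CPM in siCtrl (-0.64 ± 0.13, edgeR adjusted p = 0.00659). RAD51C, its partner in the BCDX2 complex, was at 20.2, 17.9 and 20.3 CPM in siRCC2, against 13.9, 16.2 and 16.7 CPM in siCtrl, and did not pass (0.32 ± 0.12, adjusted p = 0.0643). The ratio of RAD51B to RAD51C counts was 0.240, 0.256 and 0.256 in siRCC2, against 0.527, 0.502 and 0.441 in siCtrl. That was a change of -0.96 ± 0.08 on the log2 scale (SE; exact permutation p = 0.10), the largest relative to its error among the 10 partner pairs compared, 7 of which had ratios that did not overlap between groups. With Benjamini-Hochberg adjustment over the 10 pairs, those 7 had an adjusted p of 0.143. How often the ratios of other gene pairs separate was not examined. Of all tested genes, 28.5% were themselves lower and 26.8% higher in siRCC2 without overlap between groups.

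RAD51D rose, to 46.0, 33.0 and 43.3 CPM in siRCC2, against 27.8, 30.8 and 28.0 CPM in siCtrl (0.50 ± 0.14, edgeR adjusted p = 0.0246). It shares 7.4% of its 50-base stretches with other genes, mostly with RAD51L3-RFFL, a read-through transcript that is not analysed here. The call was lost without siRCC2 replicate 3 or any 1 siCtrl library, and with a replicate block or limma-voom sample weights (adjusted p from 0.0514 to 0.0828). With the sample weights the log2 fold change was 0.27. XRCC3 did not pass (0.18 ± 0.08, adjusted p = 0.0949), with 92.6 to 104 CPM in siRCC2 and 83.6 to 90.05 CPM in siCtrl, and passed without siRCC2 replicate 3 (adjusted p = 0.0445) and with limma-voom sample weights (adjusted p = 0.0153). XRCC2, another of these genes, was at 7.26, 11.03 and 11.7 CPM in siRCC2, against 10.7, 13.5 and 15.04 CPM in siCtrl. It did not pass (-0.39 ± 0.21, adjusted p = 0.187), and its groups overlapped.

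RAD54L, a motor protein of strand invasion, fell. It was at 10.5, 11.5 and 11.2 CPM in siRCC2, against 17.2, 17.1 and 19.8 CPM in siCtrl (-0.70 ± 0.11, edgeR adjusted p = 0.00261). Its relative RAD54B was at 6.95, 10.3 and 12.6 CPM in siRCC2, against 11.2, 13.6 and 14.6 CPM in siCtrl. It did not pass (-0.40 ± 0.23, adjusted p = 0.199), and 78.9% of its 50-base stretches occur in other genes, chiefly FSBP, which overlaps it on the same strand. Summed with those rows it had a log2 fold change of -0.34 ± 0.21. RAD52, an annealing protein, was at 7.32 to 7.98 CPM in siRCC2 and 7.44 to 8.24 CPM in siCtrl, and did not pass (-0.05 ± 0.12, adjusted p = 0.770).

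Of the 5 resection genes, EXO1, the long-range nuclease, passed. It fell to 17.6, 19.0 and 21.3 CPM in siRCC2, against 25.7, 24.7 and 27.3 CPM in siCtrl (-0.42 ± 0.11, edgeR adjusted p = 0.0180). The call was lost without siRCC2 replicate 2, siCtrl replicate 1 or siCtrl replicate 3 (adjusted p from 0.0550 to 0.0704). MRE11, the nuclease of the complex that first binds a break, was at 13.2, 18.2 and 22.5 CPM in siRCC2, against 26.0, 23.4 and 27.1 CPM in siCtrl. Its groups did not overlap but it did not pass (-0.50 ± 0.19, adjusted p = 0.0718). It passed without siRCC2 replicate 3 (adjusted p = 0.0189), with DESeq2 (adjusted p = 0.0401) and with limma-voom sample weights (adjusted p = 0.00963). RAD50, the complex's ATPase, was at 8.22, 16.6 and 30.8 CPM in siRCC2, against 23.2, 28.1 and 28.8 CPM in siCtrl (-0.52 ± 0.41, adjusted p = 0.347). The siRCC2 values of RAD50 spanned those of siCtrl on both sides, and it passed without siRCC2 replicate 3 (-1.09 ± 0.29, adjusted p = 0.0281) and with limma-voom sample weights (-0.61, adjusted p = 0.0490). Of the 50-base stretches of RAD50, 90.6% also occur in transcripts of other genes, so its values depend on how reads were shared. NBN, the third subunit of that complex (-0.31 ± 0.19, adjusted p = 0.225), and RBBP8, the resection factor CtIP (-0.26 ± 0.23, adjusted p = 0.396), did not pass.

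Of 9 genes of the Fanconi core complex and its ubiquitin-conjugating enzyme, 2 fell (22.2%, against 21.1% of all tested genes) and 7 did not pass. FANCC (ENSG00000158169, chromosome 9, 95099054 to 95317709) had the lowest fold change of the 51 genes. It was at 18.1, 17.4 and 17.2 CPM in siRCC2, against 49.9, 28.3 and 49.9 CPM in siCtrl (-1.28 ± 0.22, edgeR adjusted p = 0.00346). The siRCC2 values were close together, while siCtrl replicate 2 lay well below its companions, and the groups did not overlap. FANCA, the subunit that brings the complex together with FANCG, fell slightly, to 68.6, 68.7 and 67.7 CPM in siRCC2, against 80.3, 77.3 and 83.3 CPM in siCtrl (-0.23 ± 0.07, edgeR adjusted p = 0.0303). It lost its call in 8 of 14 alternatives, which were every omission of a library other than siRCC2 replicate 1, DESeq2, its size factors and the replicate block (adjusted p from 0.0514 to 0.146). FANCG lay just outside the threshold (-0.40 ± 0.14, adjusted p = 0.0514), with 64.8 to 80.6 CPM in siRCC2 and 78.9 to 108 CPM in siCtrl, and passed without siRCC2 replicate 1 (adjusted p = 0.0288) or siCtrl replicate 1 (adjusted p = 0.0193). With all 6 libraries FANCG passed under upper quartile scaling (adjusted p = 0.0476), total counts (adjusted p = 0.0294), no filter beyond 1 read (adjusted p = 0.0411) and limma-voom sample weights (adjusted p = 0.00955). FANCL, the ubiquitin ligase, was at 9.67, 13.2 and 15.99 CPM in siRCC2, against 17.5, 17.8 and 14.4 CPM in siCtrl, and did not pass (-0.35 ± 0.19, adjusted p = 0.186). UBE2T, its ubiquitin-conjugating partner (-0.03 ± 0.09, adjusted p = 0.783), did not pass, and neither did FANCB (0.44 ± 0.27), FANCE (-0.14 ± 0.09), FANCF (0.12 ± 0.17) and FANCM (-0.33 ± 0.39).

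Both genes of the heterodimer that receives this ubiquitin fell. FANCD2 (chromosome 3, 10026414 to 10101930) was at 26.5, 26.7 and 25.3 CPM in siRCC2, against 38.7, 37.7 and 41.3 CPM in siCtrl (-0.58 ± 0.09, edgeR adjusted p = 0.00182). Of its 50-base stretches 7.7% occur in other genes, mainly the pseudogene FANCD2P2, and the sum with FANCD2 pseudogenes gave the same -0.58. FANCI was at 51.1, 55.0 and 61.3 CPM in siRCC2, against 63.1, 72.4 and 75.0 CPM in siCtrl (-0.33 ± 0.10, adjusted p = 0.0395). The FANCI call was lost without siRCC2 replicate 1 or 2 or siCtrl replicate 2 or 3 (adjusted p from 0.0575 to 0.128).

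None of the 5 genes of the damage kinases and ATRIP passed. ATM, the kinase of double-strand breaks, was at 13.5, 45.6 and 66.2 CPM in siRCC2, against 51.5, 58.3 and 58.6 CPM in siCtrl (-0.42 ± 0.48, edgeR adjusted p = 0.507). The third siRCC2 library held more ATM than any siCtrl library and the first less than any other. The ATM log2 fold change was -0.02 ± 0.16 without siRCC2 replicate 1 and -0.92 ± 0.45 without siRCC2 replicate 3 (edgeR adjusted p = 0.924 and 0.154). ATR, the kinase of single-stranded DNA, was at 22.4, 43.3 and 54.8 CPM in siRCC2, against 30.1, 32.6 and 41.4 CPM in siCtrl (0.21 ± 0.30, adjusted p = 0.607). Without siRCC2 replicate 1 it was at 0.48 ± 0.16, at the threshold itself (adjusted p = 0.049997). ATRIP, the partner of ATR, was divided unevenly between its 2 rows. The sum was 17.3, 14.5 and 15.7 CPM in siRCC2, against 15.5, 11.2 and 13.6 CPM in siCtrl, and it did not pass (0.24 ± 0.15, adjusted p = 0.235). The effector kinases CHEK1 (-0.16 ± 0.10, adjusted p = 0.221) and CHEK2 (-0.14 ± 0.08, adjusted p = 0.223) differed little between groups.

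Among the proteins that mark chromatin beside a break, RNF8, the first ubiquitin ligase of the cascade, fell. It was at 14.2, 15.7 and 16.0 CPM in siRCC2, against 23.12, 23.4 and 26.3 CPM in siCtrl (-0.67 ± 0.11, edgeR adjusted p = 0.00257). RNF168, which acts after it, did not pass (-0.28 ± 0.17, adjusted p = 0.225), and neither did the adaptor MDC1 (-0.09 ± 0.06, adjusted p = 0.251) or TP53BP1 (0.17 ± 0.15, adjusted p = 0.383), which shields ends from resection. MDC1 was at 160 to 166 CPM in siRCC2 and 172 to 174 CPM in siCtrl, and passed under scaling by total counts (-0.16, adjusted p = 0.0380).

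Both RecQ helicase genes of the set fell. BLM, which dissolves double Holliday junctions, was at 6.35, 7.52 and 10.6 CPM in siRCC2, against 12.1, 13.0 and 13.6 CPM in siCtrl (-0.66 ± 0.19, edgeR adjusted p = 0.0315). WRN, the Werner syndrome helicase, was at 17.1, 27.2 and 29.7 CPM in siRCC2, against 36.6, 35.8 and 38.95 CPM in siCtrl (-0.59 ± 0.20, adjusted p = 0.0473). Both calls were lost without siRCC2 replicate 2 or any 1 siCtrl library, with an adjusted p from 0.0639 to 0.0933 for BLM and from 0.0617 to 0.125 for WRN. Without siRCC2 replicate 1 the WRN call held at a smaller -0.40 ± 0.09 (adjusted p = 0.0105). POLQ, the polymerase of theta-mediated end joining, did not pass (-0.25 ± 0.34, adjusted p = 0.588), and was at 0.05 ± 0.18 without siRCC2 replicate 1.

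The nucleases that cut joined molecules split. MUS81 fell, to 42.4, 37.8 and 39.3 CPM in siRCC2, against 59.4, 71.8 and 63.9 CPM in siCtrl (-0.71 ± 0.10, edgeR adjusted p = 0.00149). EME1, its obligate partner, did not pass (0.11 ± 0.14, adjusted p = 0.549). There were 3.63, 3.99 and 4.41 MUS81 counts per EME1 count in siRCC2, against 6.33, 8.08 and 6.71 in siCtrl (exact permutation p = 0.10). SLX4, the scaffold that holds MUS81 and other nucleases, rose, to 54.8, 42.3 and 48.6 CPM in siRCC2, against 34.04, 36.9 and 32.9 CPM in siCtrl (0.49 ± 0.11, edgeR adjusted p = 0.0131). The SLX4 call was lost without siCtrl replicate 1 (adjusted p = 0.050004) or siCtrl replicate 3 (adjusted p = 0.0538). EME1 overlaps LRRC59 on the other strand.

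In end joining without a template, XRCC5 fell and XRCC6 did not pass. XRCC5 was at 198, 192 and 202 CPM in siRCC2, against 241, 250 and 238 CPM in siCtrl (-0.30 ± 0.06, edgeR adjusted p = 0.00630), and lost its call without siRCC2 replicate 2 (adjusted p = 0.0640). XRCC6 was at 615, 557 and 524 CPM in siRCC2, against 533, 540 and 532 CPM in siCtrl (0.08 ± 0.07, adjusted p = 0.410), and 17.2% of its 50-base stretches occur in other genes, chiefly its pseudogenes. The XRCC5 to XRCC6 ratio was 0.323, 0.345 and 0.386 in siRCC2, against 0.452, 0.462 and 0.448 in siCtrl (exact permutation p = 0.10). XRCC4 was at 4.17, 6.23 and 6.97 CPM in siRCC2, against 3.97, 3.83 and 3.81 CPM in siCtrl, so that its groups did not overlap. It did not pass with all libraries (0.58 ± 0.21, adjusted p = 0.0578) and did without siRCC2 replicate 1 (0.76 ± 0.14, adjusted p = 0.00576). With all 6 it passed under DESeq2 size factors (adjusted p = 0.0461), a minimum mean of 1 CPM (adjusted p = 0.0466) and limma-voom sample weights (adjusted p = 0.00412). LIG4 (-0.20 ± 0.44, adjusted p = 0.737) and PRKDC (-0.15 ± 0.11, adjusted p = 0.309) did not pass. Without siRCC2 replicate 1 LIG4 was at 0.16 ± 0.21.

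PMS2, the endonuclease subunit of mismatch repair (chromosome 7, 5973239 to 6009125), had the lowest adjusted p of the 51 genes. It fell to 20.1, 17.8 and 17.9 CPM in siRCC2, against 35.9, 37.9 and 36.0 CPM in siCtrl (-0.98 ± 0.09, edgeR adjusted p = 0.000352). PMS2 shares 34.1% of its 50-base stretches with other genes, mostly the pseudogene PMS2CL. Summed over 12 rows of PMS2 and its pseudogenes, the level was 85.1, 79.8 and 81.5 CPM in siRCC2, against 107, 110 and 113 CPM in siCtrl. That sum fell by 0.42 on the log2 scale (SE 0.07, edgeR adjusted p = 0.00241), less than the single row. MSH6, which recognises mismatches, did not pass (0.02 ± 0.11, adjusted p = 0.897).

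**Figure D3:**
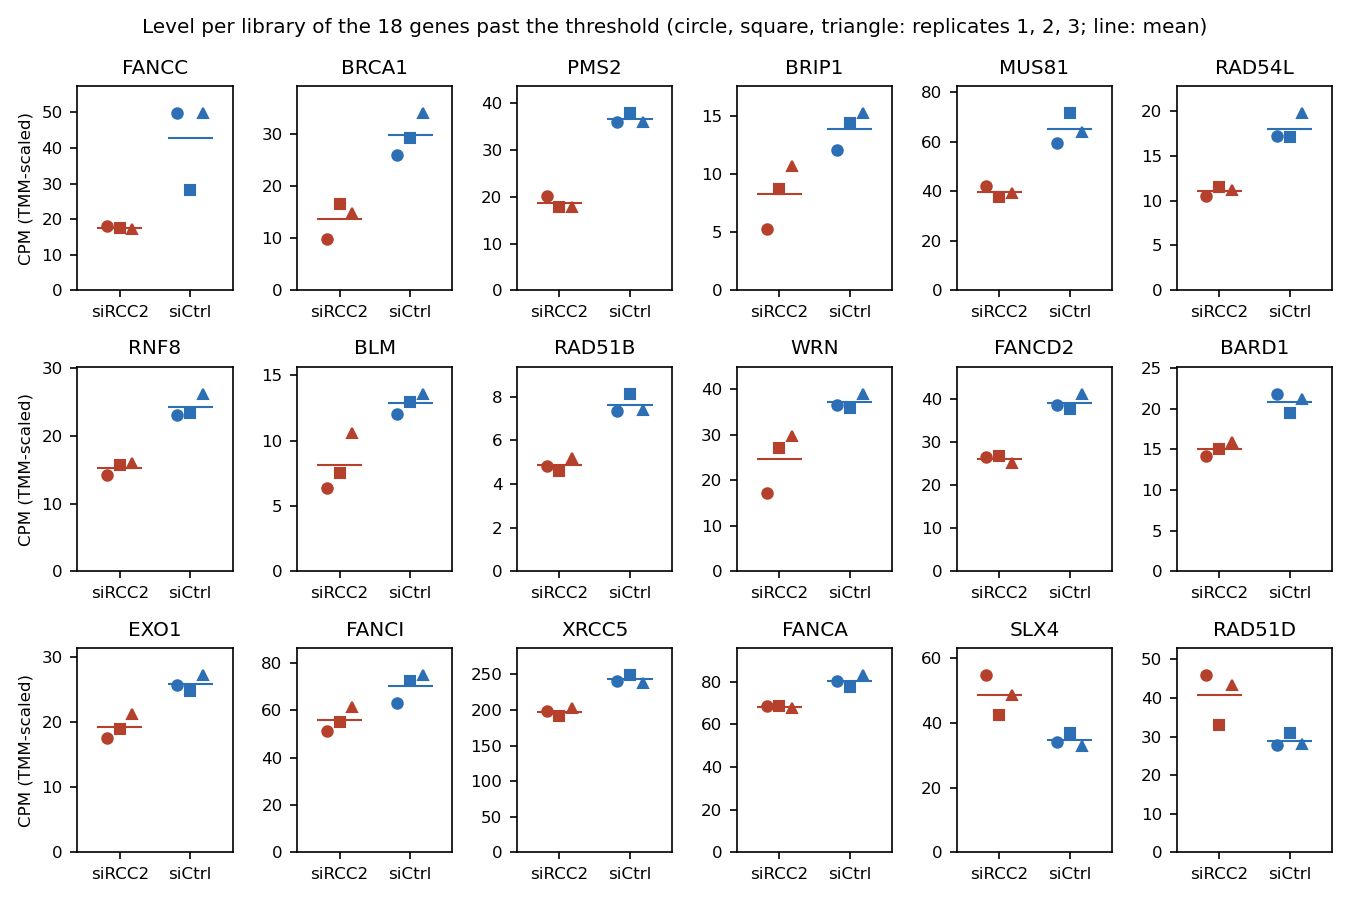
CPM in each library (vertical axis, from 0) of the 18 genes past the threshold, siRCC2 left and siCtrl right in each panel, with symbols for replicates 1 to 3 and a line at the mean. The siRCC2 points lie below all siCtrl points in the 16 panels from FANCC to FANCA and above them in those of SLX4 and RAD51D.

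A 6-base sequence, TCTGGA, was looked for in 3′ UTRs because earlier work on these counts found it more often in genes that fell. It was in 55.2% of the 3022 searched genes that fell, 35.4% of the 2742 that rose and 41.7% of the 6993 that did not pass (3′ UTRs of at least 100 bases, longest coding transcript, GENCODE 29). These shares come from the counts on which the sequence was found and are not independent evidence for it. Among the genes described here it was in 16 of 51 (31.4%), against 43.5% of all searched, with median 3′ UTR lengths of 1065 and 1349 bases. It was in 5 of the 16 that fell, which were XRCC5, RNF8, BARD1, FANCC and EXO1, and in 10 of the 33 that did not pass. The 3′ UTRs of BRCA1, FANCD2, RAD54L, MUS81 and PMS2 did not hold these letters.

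The spread of siRCC2 replicates followed the base composition of the transcripts. Of the set, 9 of the 51 genes varied by more than 2-fold among the siRCC2 libraries, which were ATM, BRCA2, LIG4, RAD50, FANCM, POLQ, ATR, BRIP1 and PALB2. Among the siCtrl libraries 0 of the 51 did. In all 13 genes whose longest coding transcript has a GC content under 40%, siRCC2 replicate 1 held the lowest and replicate 3 the highest siRCC2 value. This order was seen in 13 of the 38 genes of 40% GC or more (34.2%). Of 1722 protein-coding genes under 40% GC with a mean of at least 3 CPM it was seen in 73.1%, and in 21.0% of the richer ones. Across the 51 genes, the log2 ratio of siRCC2 replicate 1 to the mean of replicates 2 and 3 went with GC content (Spearman rho 0.81, Pearson r 0.66) and with transcript length on a log scale (rho -0.42, r -0.44). Over all 11638 protein-coding genes at that level the values with GC were 0.61 and 0.54. These are descriptions over genes that share the same 3 libraries.

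Fold changes themselves went little with GC content among the 51 genes (Spearman rho 0.15, Pearson r 0.12). In the 13 AT-rich genes 3 fell, which were BARD1, BRIP1 and WRN, and 0 rose, and the median standard error was 0.23. Among the other 38, 13 fell and 2 rose, with a median standard error of 0.12. The median log2 fold change was -0.40 in the AT-rich genes and -0.24 in the others. Of the 1722 protein-coding genes under 40% GC with a mean of at least 3 CPM, 303 fell and 183 rose, with a median of -0.15. Of the 9916 such genes of 40% GC or more, 2435 fell and 2470 rose, with a median of 0.01. Whether library composition plays a part in the fold changes was not tested, and each call that depends on siRCC2 replicate 1 is given with its gene above.

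**Figure D4:**
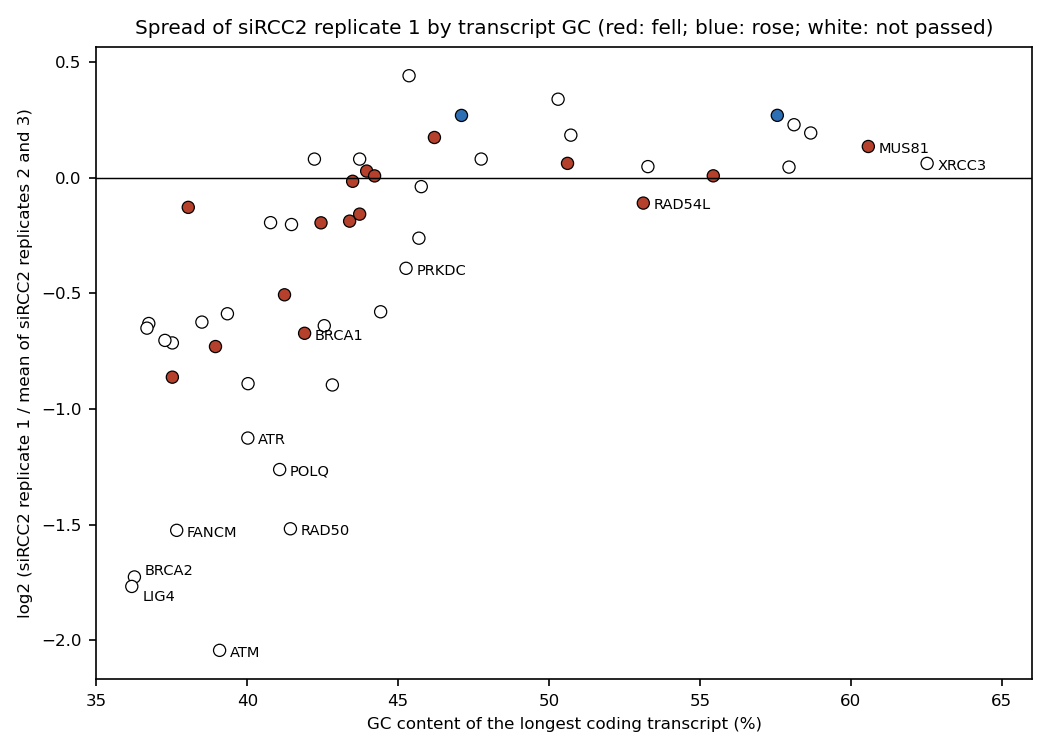
Log2 ratio of siRCC2 replicate 1 to the mean of siRCC2 replicates 2 and 3 (vertical axis) against GC content of the longest coding transcript (horizontal axis, percent) for 51 genes; red points fell, blue points rose and white points did not pass in siRCC2 against siCtrl. ATM, LIG4 and BRCA2 lie lowest, and most genes above 45% GC lie near 0.

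Other genes of the same pathways and of the cell cycle were counted in the same fit. Of 58 tested genes of recombination, crosslink repair, signalling and end joining outside the set, 11 rose (19.0%) and 8 fell (13.8%). Their median log2 fold change was -0.09. Of all tested genes 20.7% rose and 21.1% fell. RPA1, the large subunit of the single-strand binding protein, rose to 371 ± 10.5 CPM in siRCC2, against 217 ± 7.15 CPM in siCtrl (0.78 ± 0.06, edgeR adjusted p = 0.000147). HUS1, part of the checkpoint clamp (-1.12 ± 0.10), LIG3, a DNA ligase (-0.81 ± 0.08), and H2AX, the histone that is phosphorylated at breaks (-0.85 ± 0.09), fell. Of 22 genes of G1/S and S phase 5 rose (22.7%) and 3 fell (13.6%), with a median of 0.08. Those that rose included TYMS, thymidylate synthase (0.37 ± 0.06), CCNE1, cyclin E1 (0.81 ± 0.13), and GINS1, a subunit of the replicative helicase (0.60 ± 0.10). Of 22 genes of G2 and mitosis 3 rose (13.6%) and 1 fell (4.55%), with a median of 0.01. CCNB2, cyclin B2 (0.52 ± 0.07), TPX2, a spindle assembly factor (0.32 ± 0.06), and NUSAP1, a spindle microtubule protein (0.49 ± 0.10), rose. UBE2C, a ubiquitin-conjugating enzyme of mitotic exit (-0.82 ± 0.07), fell. The G2 and mitosis count was 7 called without siRCC2 replicate 1 and 10 without siRCC2 replicate 3, and that of S phase was 5 without siCtrl replicate 3. The part of the cell cycle in the results above was not tested.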

How the data were processed

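The authors deposited 1 table of whole-number counts per library, with 50868 genes. The submitters' processing notes name Bowtie2, RSEM and DESeq2, with the GRCh38 build and no versions, so per these notes RSEM estimates may have been rounded before deposit, and the strandedness of counting is not given in the sources used here. Samples were grouped by title. The labels' protocols name an MGIEasy kit for the libraries.

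The main test was run in edgeR 4.0.16 under R 4.3.3 (filterByExpr, TMM, quasi-likelihood F-test, Benjamini-Hochberg over 16536 genes, threshold 0.05). Standard errors were taken from the fold change and the F statistic. Alternatives used DESeq2 1.42.0 and limma 3.58.1, other scalings and filters, a replicate block, and omission of each library. Libraries of the same group were checked for duplicates and differed beyond counting noise (chi-square over degrees of freedom, 9.56 to 31.9). Annotation came from GENCODE 29 (94.8% of its 50111 shared genes at the same locus) and promoters from RefSeq. The genes and lists were chosen with earlier results of these data known, and the partner pairs, the GC division, the summed rows and the sample weights after values were seen. Values in every library were given for genes past the threshold whose mean was 1 CPM or more, values for other members under an adjusted p of 0.2 or at the extremes of level per length, and, from each other list, up to 4 genes of smallest p, 1 of which is not reported here. PALB2, BRCA2, RAD50 and other members beyond that rule were described after their values were seen. Figures used Python 3.11.15 and matplotlib 3.10.9.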

Additional observations from a re-analysis of the deposited data

How the results depend on the processing

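Of the 18 genes past the threshold, 9 kept their call in every alternative run (BRCA1, BARD1, RAD51B, RAD54L, FANCC, FANCD2, RNF8, MUS81 and PMS2), and 0 changed direction. Each of the other 9 lost it in at least 1, as given with the genes. Leaving out 1 library gave between 9 and 19 genes that fell (16 with all libraries) and between 0 and 4 that rose (2 with all). The number of all tested genes called in either direction then ranged from 5112 to 7565 (6911 with all). The S phase count ranged from 5 to 9 (8 with all) and that of G2 and mitosis from 4 to 10 (4 with all). With limma-voom sample weights, an alternative chosen after seeing the data, 9 G2 and mitosis genes were called. More genes were called in general with these weights, 9295 of all tested genes against 6911 in the main fit. With the replicate number as a replicate block 1 gene rose in place of 2 and 16 fell. ATRIP is left out of these counts of the genes described here. Deviations of same-numbered libraries correlated at 0.059, -0.042 and 0.099, and 1 of the 3 numbers matched its own best. With only 3 numbers, the check cannot tell whether same-numbered libraries share a culture or day, which the labels do not say. Other scalings moved the median of all tested genes by at most 0.07 on the log2 scale. Depth limits FANCB (25 to 53 counts per library) and similarly low genes.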
